A study of Homo sapiens with 23 samples.

Results

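The nuclear genes of mitochondrial complex I were followed through 13 MCF10A lines that differ in their p53. The members are the rows of the RNA-seq table whose symbol is NDUF followed by A, B, C, S or V and a number, which gave 37 of the 58358 genes listed. Complex I (NADH:ubiquinone oxidoreductase) is the entry point of the respiratory chain: it takes electrons from NADH, passes them through a flavin and a chain of iron-sulfur clusters to ubiquinone, and pumps protons across the inner mitochondrial membrane. Its peripheral arm carries the redox groups and its membrane arm the proton pumps, whose central subunits are encoded by mitochondrial DNA. The many accessory subunits around this core are needed for its assembly and stability, and inherited defects in core and accessory genes alike are known from mitochondrial disease. The members were ordered as 7 core subunits of the peripheral arm, 9 accessory subunits of that arm, 9 of the proximal and 11 of the distal membrane arm, and NDUFA4, which was named as a complex I subunit and is now placed in complex IV. The symbol rule does not take NDUFAB1, the acyl carrier protein of the complex, and the table lists 0 mitochondrially encoded genes, since mitochondrial RNA was dropped before TPM were computed.

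MCF10A is an immortalised, non-transformed breast epithelial line. The 4 contact mutants (R248Q, R248W, R273C, R273H) carry substitutions at residues that touch DNA, and the 6 structural mutants (G245S, H179R, R175H, Y163C, Y220C, Y234C) carry substitutions that alter the fold of the DNA-binding domain. The 3 controls are the parental line (WT), a line in which shRNA lowers wild-type p53 (WTKD) and a line with added wild-type p53 (labelled WTOE). All mutants were stable lentiviral lines with a V5 tag on p53, kept the wild-type p53 of the parental line and were untreated. The mutant proteins and the added wild-type protein came from different vectors (pLenti4/V5-DEST and pLX304), and the study describes the Y234C protein as not elevated on western blots. RNA was measured in 1 library per line, so the spread within a class is the spread between lines, and p53 binding was mapped by V5 ChIP-seq in 5 of the lines.

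Values are log2(TPM+1), where TPM is a transcript abundance scaled for transcript length and for the total of the library, so levels can be set side by side between genes. How deeply each RNA library was sequenced is unknown, because counts were not used here. Epithelial identity was visible in the sum of 12 basal markers, which ran from 2689 to 6771 TPM over the libraries. The sums were at most 61.6 TPM for 8 fibroblast, 6.13 TPM for 6 endothelial and 12.5 TPM for 6 blood cell markers. The basal sum does not speak for each marker. In the mutants KRT5 and KRT6A were at least 9.97 and 9.02, while TP63 fell to 0, CDH1 to 0.25 and EPCAM to 2.53. In R273H 2 of the 12 were listed at 0, and in R248W and R273C 1 each. The mean of the 12 was 4.44 in R273H and 6.17 to 8.19 in the other lines. The libraries of Y234C and R273H stood apart, with 46.8% and 37.4% of their TPM in 50 genes against 27.1 to 33.6% in the other 11. Over the 14884 genes tested, those that reached 1 in 3 or more of the lines, the median level was 2.63 and 2.85 in these libraries and 3.47 to 3.85 in the others.

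All 37 members passed that filter, and 34 were above 0 in every line. Their mean levels had a median of 6.41, against 3.37 over all 14884 genes tested. Together they made up 0.405% of all TPM in R273H and 0.688% in H179R, the lowest and highest lines, with 0.552% in WT, 0.492% in WTKD and 0.471% in the library labelled WTOE. The contact mutants held 0.454% (R248Q), 0.483% (R248W), 0.558% (R273C) and 0.405% (R273H), and the structural mutants 0.454 to 0.688%, so the classes overlapped.

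The most abundant members belong to the membrane arm. NDUFS5, a subunit on the intermembrane space side, averaged 9.14 ± 0.49 (SD, n = 13), NDUFA1, a small single-pass protein on the X chromosome, 8.68 ± 0.88 (SD, n = 13), and NDUFB9, a distal arm subunit of the LYR family, 8.56 ± 0.59 (SD, n = 13). The order of these levels was not fixed: the gap between NDUFA1 and NDUFB9 is far smaller than either SD. At the other end were NDUFA7 at 1.66 ± 1.97 (SD, n = 13), the core subunit NDUFS7 at 2.58 ± 1.55 (SD, n = 13), the core subunit NDUFV2 at 2.61 ± 2.11 (SD, n = 13) and NDUFA13 at 2.82 ± 1.13 (SD, n = 13). Neighbours in this order differed by less than either SD, while NDUFA7 and NDUFA13 lay slightly further apart than the SD of NDUFA13. Between these ends, the median of the mean levels was 6.41 for the core subunits, 7.07 for the accessory subunits of the peripheral arm, 6.30 for the proximal and 6.34 for the distal membrane arm. The distal arm was the narrowest group, from 5.28 (NDUFB1) to 8.56 (NDUFB9), and the peripheral arm held members near the floor in both of its groups. NDUFAB1, which stands outside the symbol rule, differed between mutant and control lines by only 0.05 ± 0.45 (SE).

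**Figure D1:**
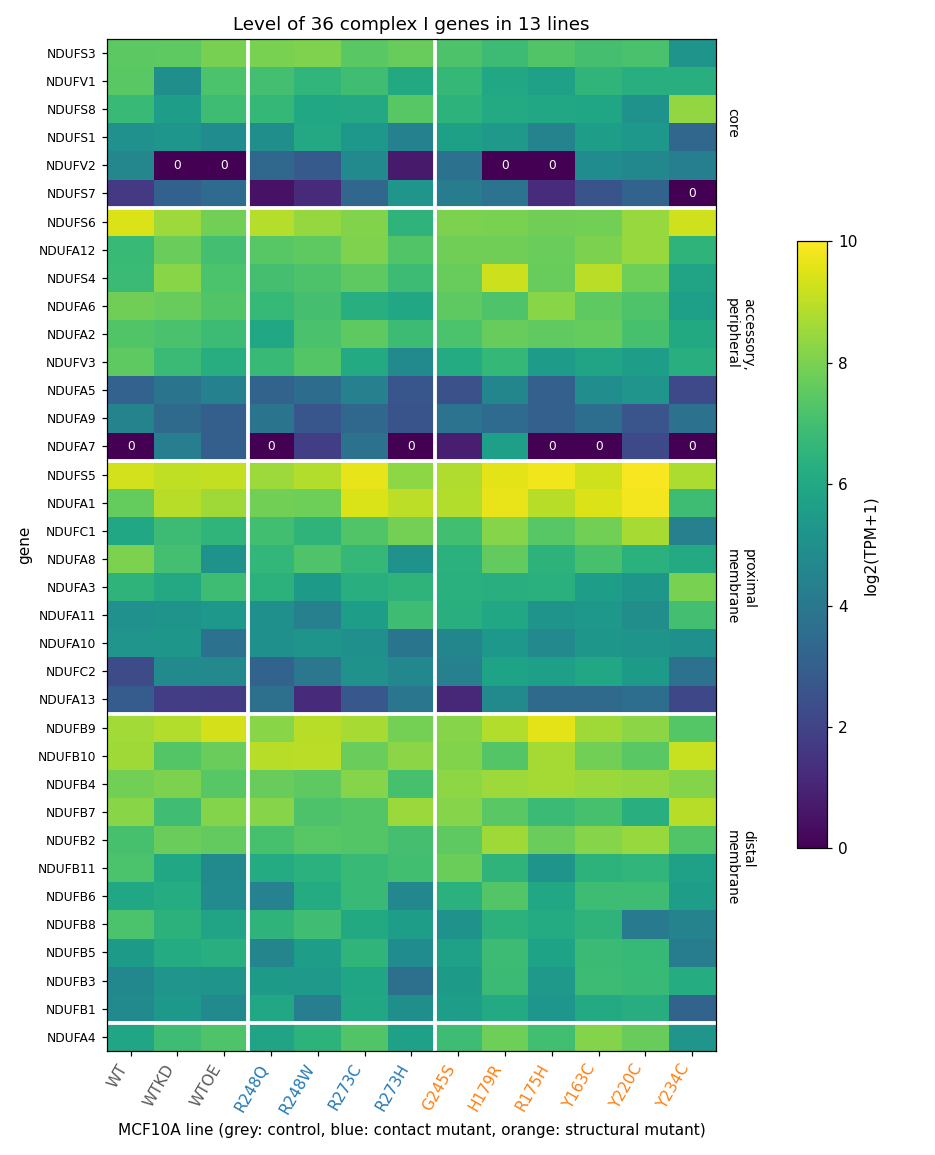
Level of 36 of the 37 members (rows, grouped by structural role and sorted by mean within a role) in the 13 lines (columns, controls, contact and structural mutants from left to right), as log2(TPM+1) on a colour scale from 0 to 10, with a printed 0 where the gene is listed at 0. NDUFV2, NDUFS7 and NDUFA7 are the members with zeros, while NDUFS5, NDUFA1 and NDUFB9 are bright in nearly every column.

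Among the core subunits, those of the electron path from NADH to quinone did not share 1 level. NDUFV1 (chr11:67605653-67612554, + strand) holds the flavin that accepts electrons from NADH. NDUFV1 stood at 7.46 in WT, 5.00 in WTKD and 7.17 in the library labelled WTOE. It was 6.99 in R248Q, 6.57 in R248W, 6.93 in R273C and 6.09 in R273H, and 5.71 to 6.66 in the structural mutants (median 6.31). WTKD was the lowest of the 13 lines and WT the highest, so the 3 controls spanned the whole range of the mutants. NDUFS1 (chr2:206114817-206159509, - strand), the largest core subunit, binds several of the iron-sulfur clusters. NDUFS1 stood at 5.07 in WT, 5.24 in WTKD and 4.87 in the library labelled WTOE. Its level was 4.98 in R248Q, 6.03 in R248W, 5.34 in R273C and 4.41 in R273H, with 3.29 to 5.66 in the structural mutants (median 5.37). Y234C was the lowest and R248W the highest line.

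NDUFS3 (chr11:47565336-47584562, + strand) is a core subunit that joins the modules of the peripheral arm. NDUFS3 stood at 7.48 in WT, 7.50 in WTKD and 7.96 in the library labelled WTOE. Among contact mutants it was 7.97 in R248Q, 8.07 in R248W, 7.45 in R273C and 7.67 in R273H, against 5.17 to 7.28 in the structural mutants (median 7.09). All contact mutants were above all structural mutants, with Y234C far below the rest. NDUFS8 (chr11:68030617-68036644, + strand) carries the iron-sulfur clusters before the last one of the chain. NDUFS8 stood at 6.73 in WT, 5.59 in WTKD and 6.90 in the library labelled WTOE. Contact mutants had 6.65 in R248Q, 5.99 in R248W, 6.05 in R273C and 7.42 in R273H, and the range was 5.10 to 8.40 in the structural mutants (median 6.07). Y234C was the highest line, followed by R273H, and Y220C was the lowest.

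The other core genes were low and uneven. NDUFV2 (chr18:9102630-9134345, + strand) is the partner of NDUFV1 in the NADH module. NDUFV2 stood at 4.63 in WT, 0.00 in WTKD and 0.00 in the library labelled WTOE. It was 3.37 in R248Q, 2.83 in R248W, 4.77 in R273C and 0.74 in R273H, and 0.00 to 4.87 in the structural mutants (median 4.02). It was listed at 0 in H179R, R175H, WTKD and the library labelled WTOE, and between 2.83 and 4.87 in all other lines except R273H. NDUFS7 (chr19:1383527-1395589, + strand) holds the last cluster before quinone. NDUFS7 stood at 1.68 in WT, 3.10 in WTKD and 3.51 in the library labelled WTOE. Its level was 0.50 in R248Q, 1.18 in R248W, 3.28 in R273C and 5.23 in R273H, with 0.00 to 4.24 in the structural mutants (median 2.88). R273H was the highest line and Y234C, at 0, the lowest. Among the accessory subunits NDUFA7 (chr19:8308768-8321375, - strand) behaved in the same uneven way. NDUFA7 stood at 0.00 in WT, 4.26 in WTKD and 3.04 in the library labelled WTOE. Among contact mutants it was 0.00 in R248Q, 1.86 in R248W, 3.74 in R273C and 0.00 in R273H, against 0.00 to 5.65 in the structural mutants (median 0.41). It was listed at 0 in 6 lines that include WT, contact and structural mutants, and H179R was the highest.

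The lowest and most uneven members share exon sequence with other annotated genes. In the GENCODE v44 annotation of GRCh38, more than 50% of the canonical exon bases also lie in exons of another gene for 6 members: NDUFV2 (90.0%), NDUFA13 (83.9%), NDUFA7 (77.9%), NDUFB8 (72.0%), NDUFA11 (68.2%) and NDUFS7 (51.3%). The largest overlap partners of these genes (AP005263.1, AC011448.1, AC010323.1, AL133352.1 and AC024592.3 on the same strand, and AC005329.1 on the opposite strand of NDUFS7) were each listed at 0 in all 13 lines. The 6 members had a median mean level of 2.71, against 6.77 in the other 31, and a median SD of 1.34 against 0.75. Reads were counted per gene by STAR, which leaves out a read that falls in more than 1 gene, so levels of these 6 are uncertain; the part of the overlap in their levels was not tested. The zeros of NDUFV2, NDUFS7 and NDUFA7 are therefore given only as listed values. Pseudogenes named after members numbered 54 in the table, of which 14 were above 0 in a line, with a highest value of 5.64 in any line and a highest mean of 1.63.

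**Figure D2:**
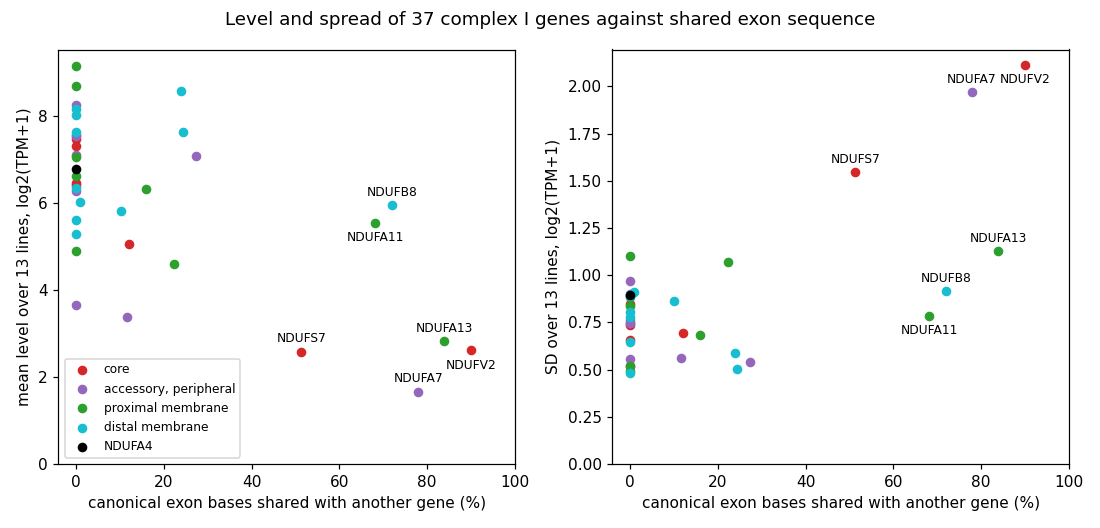
Mean level (left) and SD (right) of each member over 13 lines, both in log2(TPM+1), against the share of its canonical exon bases that another annotated gene shares, in percent; colours give the structural role. The 6 labelled members with over 50% shared bases include the 4 lowest means (1.66 to 2.82) and the largest SDs (up to 2.11), while NDUFB8 and NDUFA11 sit at 5.94 and 5.54.

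The stable members were NDUFB4 (8.02 ± 0.48 (SD, n = 13)), NDUFS5 (9.14 ± 0.49 (SD, n = 13)), NDUFB2 (7.61 ± 0.50 (SD, n = 13)) and NDUFA10 (4.89 ± 0.52 (SD, n = 13)), which had the smallest spread over lines. NDUFB4 and NDUFB2 are distal arm subunits, and NDUFA10 is a nucleoside-kinase-like protein of the proximal arm. The largest spread, in NDUFV2, NDUFA7, NDUFS7 and NDUFA13, was 1.13 to 2.11. The median SD of the members was 0.79, against 0.95 for all genes tested and 0.71 for the 2757 tested genes whose mean lies between the quartiles of the member means.

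The other members are given by their range over the 13 lines. In the peripheral arm, NDUFA2, a small thioredoxin-fold subunit, ran from 5.97 in R248Q to 7.66 in H179R, NDUFS4 from 5.83 in Y234C to 9.22 in H179R and NDUFS6 from 6.51 in R273H to 9.47 in WT. NDUFA5, a helical subunit bound to the core, ran from 2.2 in Y234C to 5.22 in Y220C, NDUFA9, which holds a nucleotide cofactor near the quinone site, from 2.58 in R273H to 4.48 in WT and NDUFA12 from 6.5 in Y234C to 8.48 in Y220C. Y234C was the lowest line for 3 of these 6 genes and R273H for 2. In the proximal membrane arm, NDUFA1 ran from 6.89 in Y234C to 9.81 in Y220C, NDUFC1 from 4.36 in Y234C to 8.69 in Y220C and NDUFS5 from 8.32 in R273H to 9.91 in Y220C. NDUFA3 ran from 5.29 in Y220C to 7.98 in Y234C, NDUFA8 from 5.14 in R273H to 8.02 in WT, NDUFA10 from 3.78 in the library labelled WTOE to 5.34 in H179R and NDUFA11 from 4.35 in R248W to 7.03 in Y234C. Y220C was the highest line of the first 3 of these genes. In the distal arm NDUFB1 ran from 3.17 in Y234C to 6.22 in Y220C, NDUFB5 from 4.22 in Y234C to 6.86 in H179R, NDUFB9 from 7.37 in Y234C to 9.58 in R175H and NDUFB10 from 7.32 in WTKD to 9.15 in Y234C. NDUFB7 ran from 6.29 in Y220C to 8.91 in Y234C, NDUFB8 from 4.07 in Y220C to 7.17 in WT and NDUFB11, an X-linked subunit, from 4.73 in the library labelled WTOE to 7.74 in G245S. NDUFA4 ran from 5.21 in Y234C to 8.13 in Y163C.

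The first comparison asked whether lines with a p53 mutant differed from lines without one. It set 10 mutant lines against 3 controls with limma, over 14884 genes. No member passed an adjusted p of 0.05, where 3 genes (AC006566.1, AC138811.1 and CBY1; 0.0202% of those tested) did, and 0 of 37 members had an unadjusted p under 0.05, against 719 of all genes (4.83%). The difference was above 0 for 20 members and below 0 for 17, with a median of 0.01, and the median over all genes was -0.08. In 0 members did the values of mutants and controls separate without overlap, as they did for 1% of all genes. By role, 3 of 7 core genes, 2 of 9 accessory genes of the peripheral arm, 7 of 9 of the proximal and 7 of 11 of the distal membrane arm lay above 0, with medians of -0.01, -0.36, 0.40 and 0.32. The 95% interval of a member reached a median of 1.17 to either side of its difference, before any adjustment for the number of genes tested. With that adjustment only larger differences could pass.

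The member of lowest p was NDUFV3 (chr21:42879644-42913304, + strand), an accessory subunit at the tip of the peripheral arm. NDUFV3 stood at 7.52 in WT, 6.81 in WTKD and 6.25 in the library labelled WTOE. Contact mutants had 6.76 in R248Q, 7.32 in R248W, 6.13 in R273C and 4.73 in R273H, and the range was 5.48 to 6.67 in the structural mutants (median 5.99). R273H was the lowest line and WT the highest, and the mutants spanned the values of the other 2 controls. Mutants minus controls was -0.76 ± 0.52 (SE; 95% interval -1.85 to 0.33; adjusted p = 0.932, limma), and it was -0.43 without WT. NDUFB3, a distal arm subunit, showed 0.76 ± 0.58 (SE; 95% interval -0.46 to 1.99; adjusted p = 0.932, limma). For NDUFC2, a proximal arm subunit, the difference was 0.85 ± 0.66 (SE; 95% interval -0.54 to 2.24; adjusted p = 0.932, limma), and it was 0.04 without WT and 1.28 without WTKD. The NDUFC2 value of WT, 2.31, was the lowest of all lines. NDUFA6, an accessory subunit of the peripheral arm that binds the acyl carrier protein, showed -0.66 ± 0.52 (SE; 95% interval -1.75 to 0.43; adjusted p = 0.932, limma), with controls at 7.84 in WT, 7.68 in WTKD and 7.30 in the library labelled WTOE and mutants from 5.65 to 8.21 (median 7.16), and it was -0.38 without R273H and Y234C. NDUFA13 (GRIM-19), a proximal arm subunit also studied as a cell death regulator, differed by 0.86 ± 0.69 (SE; 95% interval -0.59 to 2.32; adjusted p = 0.932, limma), and it is among the members with shared exons. The widest estimates belonged to NDUFV2 at 1.39 ± 1.18 and NDUFA7 at -1.01 ± 1.13 (SE).

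The second comparison, of 4 contact with 6 structural mutants, addressed whether these types of mutation leave different expression. Again 0 members passed the adjusted p of 0.05, as did 0 genes in all (0%), and 0 members had an unadjusted p under 0.05, against 734 genes (4.93%). Lower values in contact mutants were the more common direction: 11 of 37 members lay above 0 and 26 below, with a median of -0.21, where 50.4% of all genes lay above 0 and their median was 0.01. By role, in the core 6 of 7 genes were higher in contact mutants (median 0.20), whereas among the accessory subunits 1 of 9 of the peripheral arm (median -0.29), 0 of 9 of the proximal (median -0.25) and 4 of 11 of the distal membrane arm (median -0.10) were. These counts describe the 10 libraries, and each gene's own interval includes 0.

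NDUFS3 and NDUFB3 had the largest differences of opposite sign. NDUFS3 was higher in contact mutants by 1.01 ± 0.50 (SE; 95% interval -0.07 to 2.09; adjusted p = 0.96, limma), and it was the only member without overlap between the classes, as was the case for 1.03% of all genes tested. Without Y234C, the lowest structural line, the NDUFS3 difference was 0.69. NDUFB3 stood at 4.65 in WT, 5.22 in WTKD and 5.19 in the library labelled WTOE. It was 5.46 in R248Q, 5.37 in R248W, 5.88 in R273C and 3.71 in R273H, and 5.37 to 6.84 in the structural mutants (median 6.46). R273H was the lowest line, and R273C lay above G245S and R175H, so the classes overlapped. The NDUFB3 difference was -1.13 ± 0.55 (SE; 95% interval -2.30 to 0.05; adjusted p = 0.96, limma) and shrank to -0.66 without R273H.

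Other distal arm genes went the way of NDUFB3. NDUFB4 stood at 7.88 in WT, 8.04 in WTKD and 7.42 in the library labelled WTOE. Its level was 7.66 in R248Q, 7.53 in R248W, 8.18 in R273C and 7.09 in R273H, with 8.15 to 8.64 in the structural mutants (median 8.46). R273C reached the structural range and the other contact mutants lay under it. The difference was -0.81 ± 0.41 (SE; 95% interval -1.69 to 0.07; adjusted p = 0.96, limma). For NDUFB6 contact minus structural was -1.0 ± 0.57 (SE; 95% interval -2.23 to 0.23; adjusted p = 0.97, limma), with contact values of 4.44 in R248Q, 6.15 in R248W, 6.77 in R273C and 4.68 in R273H and structural values of 5.58 to 7.34 (median 6.65). R248Q and R273H were low while R248W and R273C were within the structural range, and without R248Q the NDUFB6 difference was -0.64. NDUFB2 differed by -0.74 ± 0.44 (SE; 95% interval -1.67 to 0.20; adjusted p = 0.97, limma), with contact mutants between 7.05 and 7.39 and structural mutants between 7.29 and 8.56. In the same arm NDUFB8 (0.80 ± 0.59), NDUFB10 (0.37 ± 0.50), NDUFB7 (0.35 ± 0.57) and NDUFB11 (0.21 ± 0.52, SE) had estimates of the opposite sign.

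**Figure D3:**
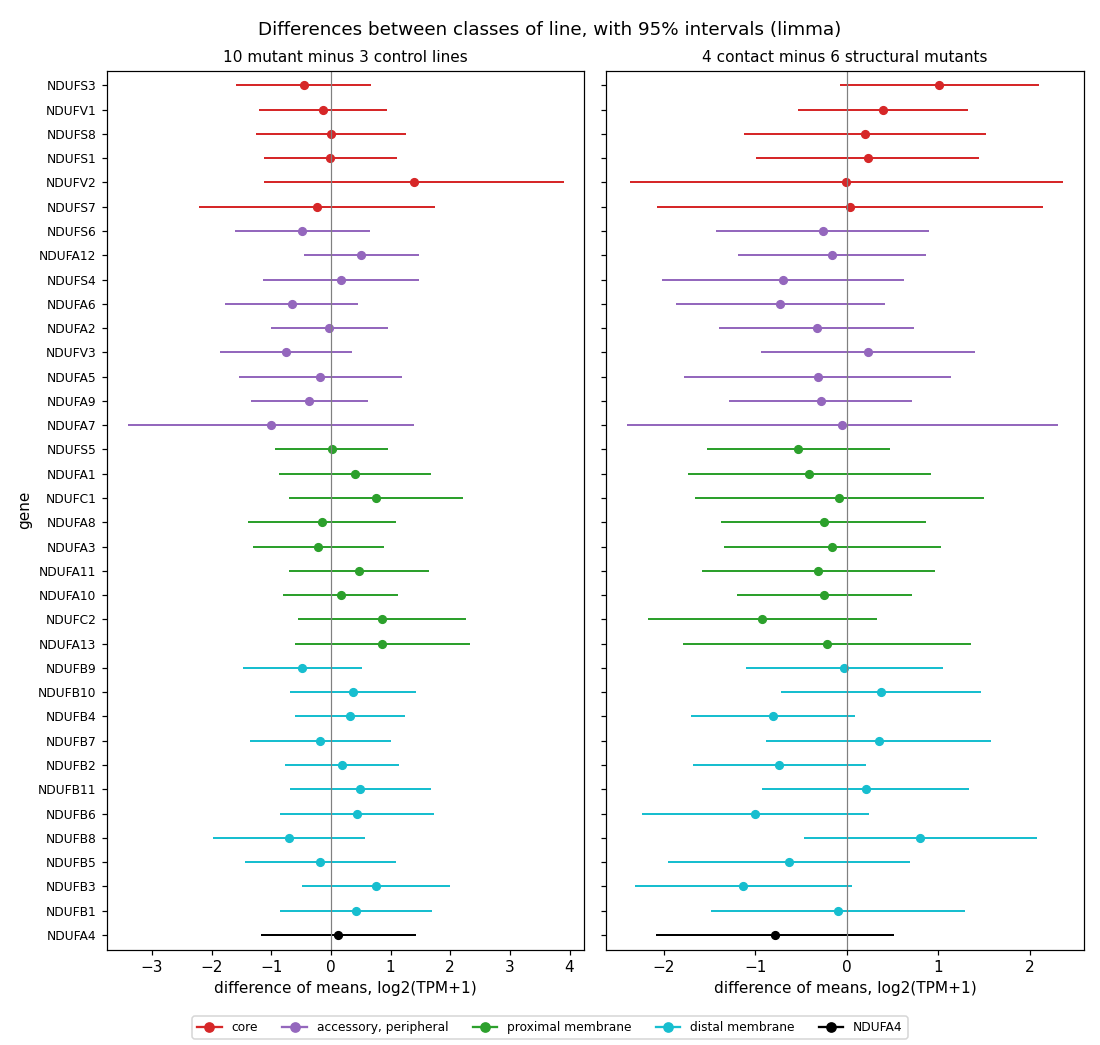
Difference of class means (points, log2(TPM+1)) with its 95% interval (lines) from limma for 36 of the 37 members, for 10 mutant minus 3 control lines (left) and 4 contact minus 6 structural mutants (right); rows as in the map of levels, colours by role. Every interval drawn includes 0, and on the right all 9 proximal arm points lie below 0.

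**Figure D4:**
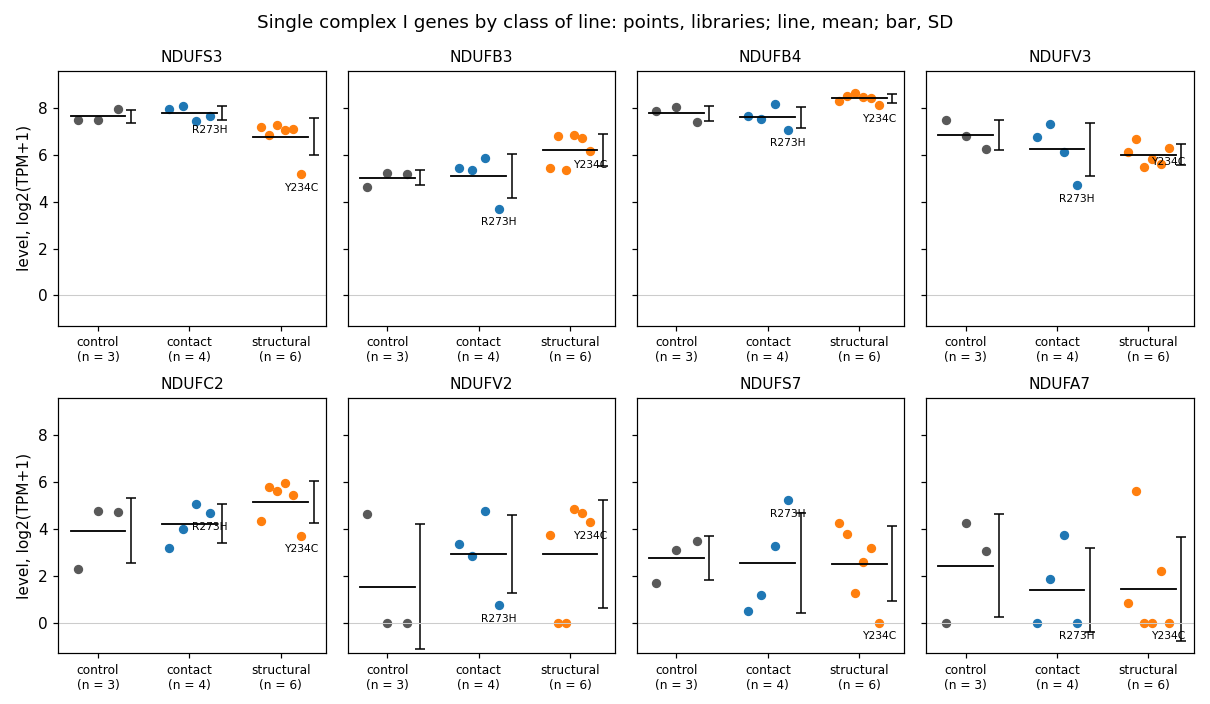
Levels in log2(TPM+1) of 8 members in the 3 control, 4 contact and 6 structural libraries (points), with the class mean (line) and SD (bar); R273H and Y234C are named. NDUFS3 is the gene whose contact and structural points do not overlap, and the lower row shows NDUFV2, NDUFS7 and NDUFA7 with libraries at 0.

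The other genes of the respiratory chain were set beside the members. Of 19 complex I assembly factors, which build the complex without staying in it, 0 passed the test in either comparison, with 6 of 19 above 0 in mutants against controls and 6 of 19 in contact against structural mutants. The lowest unadjusted p among them were those of TMEM186 (-1.19) and COA1 (-0.95) in the first comparison, and of NDUFAF6 (-1.07) and ECSIT (-0.89) in the second, all with an adjusted p of at least 0.93 in limma. In complexes II, III, IV and V 0 genes passed in either comparison. Contact minus structural lay above 0 for 3 of 4 genes of complex II (succinate dehydrogenase), 3 of 9 of complex III, 2 of 10 of complex IV and 3 of 16 of complex V, the ATP synthase, with medians of 0.13, -0.17, -0.26 and -0.41. The genes of lowest p there were COX7A2 (-1.60), a small complex IV subunit, and ATP5PF (-1.35), a stalk subunit of the ATP synthase, both with adjusted p = 0.96 (limma). Of 11 tested regulators of mitochondrial gene expression 0 passed, with ESRRA (-1.41), an orphan receptor that drives respiratory genes, and POLRMT (-1.26), the mitochondrial RNA polymerase, lowest in p between contact and structural mutants (adjusted p = 0.96, limma). Of the 12 basal epithelial markers, which are no members, 0 passed the test in either comparison, with 3 of 12 above 0 in mutants against controls (median -1.09) and 1 of 12 in contact against structural mutants (median -1.26). Of the 4 fibroblast markers tested 4 of 4 (median 0.90) and 2 of 4 (median 0.13) lay above 0, and 0 passed. The part of these markers in the members' values was not tested.

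Each mutant was then compared with the mean of the other 9, as the study did, and a member was counted when it differed by at least 1 on the log2(TPM+1) scale. With 1 library a line these are values without a test. Of 370 member and line pairs, 101 (27.3%) passed that size, against 32.5% over all genes tested. The genes tested have a median mean level of 3.37, against 6.41 for the members. The share was not computed for genes of like level, so the 2 shares do not tell whether large differences were less or more frequent among the members. H179R had the most higher members: 13 members were higher and 2 lower by at least 1, against 19% and 11.6% of all genes, and the median member difference was 0.63 against 0.24. Those higher were NDUFA7 (4.69), NDUFA13 (1.96), NDUFS4 (1.83), NDUFS7 (1.42), NDUFB6 (1.37) and 8 more between 1.01 and 1.21, and NDUFV2 (-3.25) and NDUFB10 (-1.01) were lower. NDUFS4, a peripheral arm subunit whose loss is a known cause of Leigh syndrome, had its highest level of 9.22 in this line. When each library was centred on the median of the genes tested, H179R had 5 higher and 2 lower, against 11.4% and 20.2% of all genes, so its share of higher members then lay near that of all genes.

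Y234C and R273H had the most members below the others. In Y234C 7 members were higher and 17 lower by at least 1, against 9.99% and 45% of all genes, and in R273H 4 members were higher and 13 lower by at least 1, against 11.3% and 37.6%. The median of all genes was itself -0.87 and -0.71 in these lines, close to the member medians of -0.84 and -0.60, so the typical member stood as far below the other mutants as the typical gene did. After centring, Y234C had 12 higher and 5 lower, against 23.7% and 14.4% of all genes, and R273H 10 higher and 3 lower, against 22.1% and 16.8%, so the balance of directions turned round in both lines, for the members and for all genes. Relative to the other mutants NDUFC1 (-3.17), NDUFS7 (-2.81), NDUFB1 (-2.45) and NDUFS3 (-2.24) were lowest in Y234C, and NDUFS8 (2.21), NDUFA3 (1.92) and NDUFA11 (1.53) highest. In R273H NDUFV2 (-2.44), NDUFB3 (-2.30) and NDUFS6 (-1.82), a zinc-binding subunit, were lowest, and NDUFS7 (3.0), NDUFA11 (1.38) and NDUFS8 (1.12) highest.

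In Y163C 7 members were higher and 1 lower by at least 1, against 17.7% and 6.01% of all genes, and in Y220C 6 members were higher and 4 lower by at least 1, against 18.2% and 8.57%. NDUFA5, NDUFB3, NDUFB5 and NDUFV2 were higher in both, by 1.42, 1.18, 1.16 and 2.16 in Y163C and by 1.78, 1.07, 1.04 and 1.94 in Y220C. The share of all genes higher in both was not computed, and NDUFV2 is among the members with shared exons. NDUFA5, NDUFB3 and NDUFB5 were also higher in H179R, by 1.09, 1.15 and 1.21, while NDUFV2 was lower there (-3.25). In R248Q 0 members were higher and 7 lower by at least 1, against 18.6% and 13.8%, led by NDUFS7 (-2.25) and NDUFB6 (-1.85). In R248W 3 members were higher and 5 lower by at least 1 (18.7% and 9.82% of all genes), in R273C 2 members were higher and 0 lower by at least 1 (17.1% and 6.43%), in G245S 2 members were higher and 2 lower by at least 1 (14.9% and 11.5%) and in R175H 2 members were higher and 4 lower by at least 1 (12.4% and 16.3%). R273C was thus the mutant without a member lower by 1 on this scale, and its higher members, NDUFA7 and NDUFV2, are both among those with shared exons. Centred on the library median, R273C had 2 members higher and 1 lower, against 10.3% and 12.4% of all genes.

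Mutants at the same residue were set against each other. From R273H to R273C 14 members were higher and 5 lower by at least 1, against 44% and 10.4% of all genes. The largest were NDUFV2 (4.03), NDUFA7 (3.74), NDUFB3 (2.17) and NDUFB6 (2.09) among the higher, and NDUFS7 (-1.95) and NDUFS8 (-1.37) among the lower. Centred on the library median, this balance was 4 higher and 10 lower, against 21% and 23.2% of all genes. From R248W to R248Q 3 members were higher and 5 lower by at least 1, against 17.4% and 22.4% of all genes, with NDUFA13 (2.46) and NDUFB1 (1.7) highest and NDUFA7 (-1.86) and NDUFB6 (-1.71) lowest.

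Among the controls, members of WTKD and WT differed in both directions. In WTKD minus WT 6 members were higher and 9 lower by at least 1, against 25% and 15.4% of all genes. The lower genes were led by NDUFV2 (-4.63), listed at 0 in WTKD, and NDUFV1 (-2.46). The higher ones were led by NDUFA7 (4.26), listed at 0 in WT, and NDUFC2 (2.48). NDUFV2 and NDUFA7 are among the members with shared exons, so their differences are uncertain. In the library labelled WTOE minus WT 5 members were higher and 10 lower by at least 1, against 20.4% and 18% of all genes. NDUFV2 (-4.63), NDUFA8 (-2.87), a disulfide-rich subunit, and NDUFB11 (-2.43) were lowest and NDUFA7 (3.04) and NDUFC2 (2.40) highest. NDUFV1 differed by only -0.29 here. Both contrasts use the WT library, in which NDUFC2 was the lowest and NDUFV2 at 4.63, so they are not independent of each other.

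In some of the lines the differences varied with the base composition of the transcripts. The canonical transcript of a member holds 34.6% (NDUFA5) to 66.9% (NDUFS7) G and C, and 11 members lie over 55%, 13 between 45 and 55% and 13 under 45%. Across the 37 members Pearson's r between GC content and the difference from the other 9 mutants was 0.65 in R273H (0.12 over all genes tested), 0.34 in Y234C (0.36), -0.70 in Y163C (-0.28) and -0.56 in Y220C (-0.29). In the other 6 mutants the r across members was weaker, at 0.23 in R248Q (0.21 over all genes tested), -0.11 in R248W (-0.10), -0.23 in R273C (-0.01), 0.16 in G245S (0.02), -0.10 in H179R (-0.23) and -0.16 in R175H (-0.05). Over all genes, r in R248Q and H179R was thus further from 0 than in R273H. These are descriptions across genes of 1 library each, and genes are not replicates. In R273H the members under 45% had a median difference of -1.0 (all tested genes of that class -0.80) and those over 55% of 0.57 (-0.45). In Y234C these medians were -1.3 (-1.26) and 1.01 (-0.10). In Y163C all 13 members under 45% were higher than in the other mutants, with a median of 1.16 (0.58), and those over 55% had -0.37 (-0.11). In Y220C the medians were 0.90 (0.52) and -0.13 (-0.25). Some of these members share over 50% of their exon bases with other genes, so their levels are uncertain. They are NDUFS7, NDUFA7, NDUFA11 and NDUFA13 over 55% GC, NDUFB8 between, and NDUFV2 under 45%. In R273H NDUFS7 (3.0), NDUFA11 (1.38) and NDUFA13 (1.02) were higher, and NDUFA7 (-1.59) and NDUFV2 (-2.44) lower. No r was computed without them. The part of base composition in the single line differences was not tested.

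**Figure D5:**
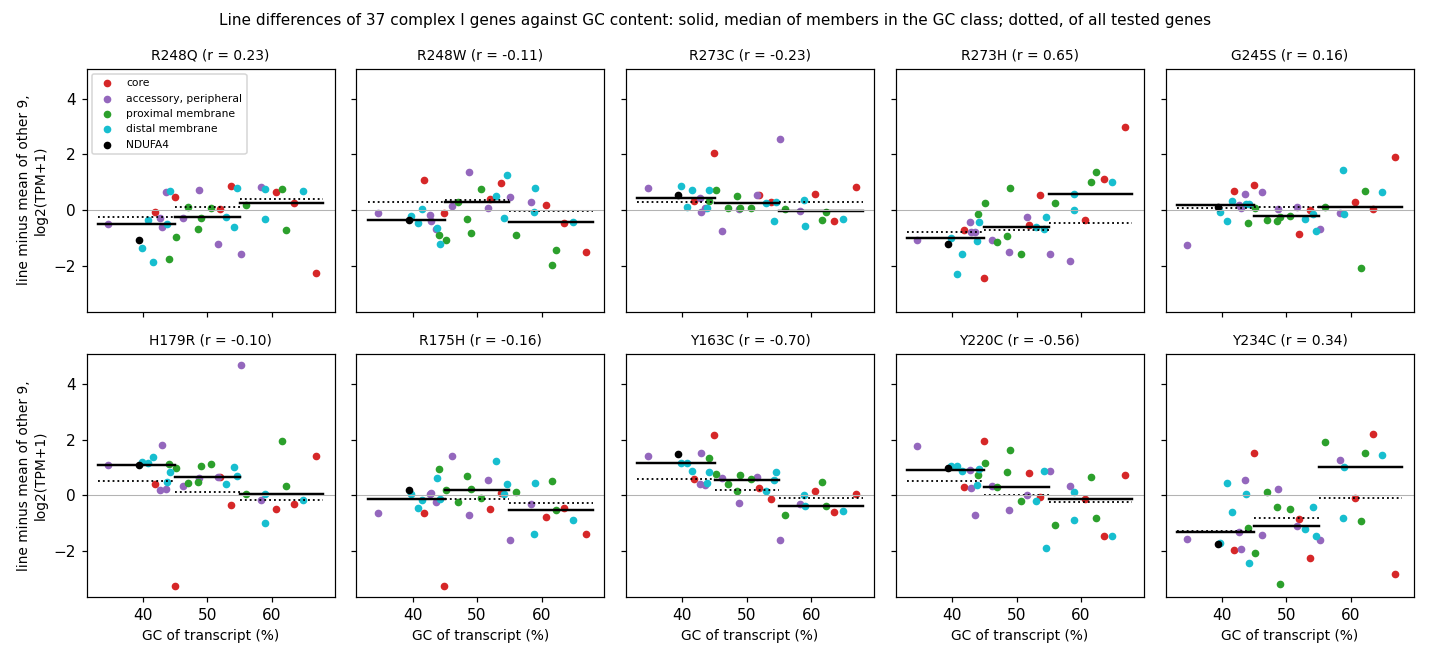
Difference of each member between 1 mutant line and the mean of the other 9 (vertical axis, log2(TPM+1)) against the GC content of its canonical transcript (horizontal axis, percent), 1 panel a line, with Pearson's r across the 37 members in the title; colours give the role, solid lines the member median and dotted lines the median of all tested genes in the classes under 45, 45 to 55 and over 55%. The cloud rises with GC in R273H (r = 0.65) and falls in Y163C (r = -0.70) and Y220C (r = -0.56). The 6 members with over 50% shared exon bases, whose levels are uncertain, are included.

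How members varied together was also set against composition. Over the 13 lines the median Pearson's r of the 666 member pairs was 0.17, against 0.11 over all pairs of tested genes, and 22.5% of member pairs exceeded 0.5, against 11.7%. The median fell to 0.08 with each library centred on its median (all pairs 0.01) and to 0.07 without R273H and Y234C (all pairs 0.02). Pairs with both members under 45% GC had a median of 0.52 (n = 78 pairs), where pairs of tested genes of that composition had 0.29. Pairs of a high with a low GC member had -0.14 (n = 143), against -0.01. With centring these medians were 0.36 (0.08 over tested genes) and -0.09 (-0.06), and without R273H and Y234C 0.49 (0.14) and -0.09 (-0.05). The closest pair was NDUFB5 with NDUFA4 (r = 0.96), both under 45% GC although 1 is a distal arm subunit and the other a complex IV protein. NDUFB7 and NDUFS8, a distal arm and a core subunit, followed at r = 0.93, and hold 64.9% and 63.5% GC. NDUFC1 and NDUFA1 of the proximal arm reached 0.91. The most opposed pair was NDUFS8 with NDUFA12 (r = -0.85), a core and an accessory subunit of the same arm. Without R273H and Y234C these values were 0.93, 0.94, 0.87 and -0.82 over 11 lines. The points share library handling and depth, and no test was made of these correlations.

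V5 ChIP-seq peaks were searched in promoter windows, from 2500 bp upstream to 100 bp downstream of any annotated start site. An overlap of at least 1 bp was counted. The list of Y220C had a peak there for 0 members (0.249% of tested genes), R273C for 0 (0%), Y234C for 0 (1.18%), R273H for 1, NDUFS7 (2.67%), and the list labelled WTOE for 3, NDUFB9 and NDUFV3 among them (6.67%). Each list comes from 1 ChIP library against its input, so peak presence has no replicate. The peak of NDUFB9 had its summit 164 bp upstream of the canonical start and was 3.07-fold over input (-log10 q = 2.2), a fold above that of 46.6% of the peaks in its list. The NDUFV3 peak overlaps the window, but its summit, 112 bp downstream of the nearest start, lies outside it. This peak was 3.08-fold over input (-log10 q = 1.73), a fold above that of 46.8% of the peaks in its list. NDUFS7 had 2 peaks in R273H, of which the one with the higher fold had its summit 640 bp upstream of an alternative start inside the gene and was 4.08-fold over input (-log10 q = 2.46), a fold above that of 32.9% of the peaks in its list. In the RNA library labelled WTOE, the level of NDUFB9 and NDUFV3 was 0.74 and -1.27 relative to WT, in opposite directions. NDUFS7 RNA was highest in R273H, at 5.23, and shares 51.3% of its exon bases with other genes.

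The sequence under this NDUFS7 peak and the NDUFV3 peak is shown for 100 bases to either side of the summit (GRCh38, plus strand), because NDUFS7 and NDUFV3 are also among the members described at the RNA level; capitals mark bases in exons of the canonical transcript. The NDUFS7 window (chr19:1391102-1391302) covers 47 exon bases and the NDUFV3 window (chr21:42893333-42893533) 49.
NDUFS7: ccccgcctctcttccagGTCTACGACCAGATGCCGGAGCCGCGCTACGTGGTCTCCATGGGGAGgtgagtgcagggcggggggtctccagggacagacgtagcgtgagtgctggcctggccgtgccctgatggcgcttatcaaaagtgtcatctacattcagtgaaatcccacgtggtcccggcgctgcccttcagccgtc
NDUFV3: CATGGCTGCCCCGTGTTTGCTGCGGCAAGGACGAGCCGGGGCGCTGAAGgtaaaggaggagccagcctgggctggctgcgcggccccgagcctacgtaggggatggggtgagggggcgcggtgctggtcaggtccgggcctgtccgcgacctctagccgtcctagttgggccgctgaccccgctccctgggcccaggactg
The p53 half-site decamer, searched on both strands with no mismatch, was found in 0 of the windows of the 12 member peaks, gene body peaks included. Of all peak windows of this length, 10.4% held it in R273H and 4.75% in the list labelled WTOE. Peaks inside gene bodies but outside promoter windows fell in NDUFC2 (R273H), NDUFS6 (Y234C) and NDUFV2, NDUFS4, NDUFA13 and NDUFB9 (the list labelled WTOE). These lists hold 25309, 2145 and 11277 peaks. The share of all tested genes with such a gene body peak was not computed, so these members cannot be set against a background.

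What the members share in sequence was sought in their promoters, 250 bases before to 50 after the RefSeq start (GRCh38.p14), which were given for 31 of the 37. Their median GC content was 61.3%, from 40.3 to 74.7%, against 58.7% in all 35116 promoters. Motifs were searched as exact letters on both strands. The 6 letters TGCGCA, part of the sequence bound by NRF1, a factor known to drive nuclear genes of respiration, occurred in 10 of 31 member promoters (32.3%) and 8.24% of all. The YY1 core AAGATGGC occurred in 6 of 31 member promoters (19.4%) and 2.89% of all, and the ETS core CCGGAAG in 5 of 31 member promoters (16.1%) and 10.3% of all. The GC box GGGCGG was found in 20 of 31 member promoters (64.5%) and 45% of all, the CCAAT letters in 8 of 31 member promoters (25.8%) and 34.6% of all and TATAAA in 3 of 31 member promoters (9.68%) and 11.5% of all. A match of letters is not a bound site. The 6 promoters with the YY1 core and a stretch of NDUFS3 with the ETS core are shown because these letters occurred in a larger share of member promoters than of all promoters; each is written 5′ to 3′ along its gene, with the motif in capitals.
NDUFS4 (chr5:53560649-53560678, + strand): ttgcctgcagcAAGATGGCggcggtgtcaa
NDUFS7 (chr19:1383913-1383942, + strand): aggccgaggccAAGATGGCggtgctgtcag
NDUFA3 (chr19:54102865-54102894, + strand): ccgcggagacaAAGATGGCtgcgagtaagt
NDUFA6 (chr22:42090729-42090758, - strand): gatgctttggcAAGATGGCggggagcggcg
NDUFA7 (chr19:8321343-8321372, - strand): atcgcggacggAAGATGGCgtccgccaccc
NDUFA9 (chr12:4649113-4649142, + strand): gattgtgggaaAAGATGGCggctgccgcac
NDUFS3 (chr11:47578980-47579008, + strand): tccacgtccgcCCGGAAGaagatctgctg
All 6 YY1 matches begin 11 to 26 bases after the start and read in the direction of the gene. The genes with the YY1 letters did not share a level: NDUFA7, NDUFS7 and NDUFA9 averaged 1.66, 2.58 and 3.37, and NDUFA3, NDUFA6 and NDUFS4 6.30, 7.10 and 7.54. NRF1 RNA itself differed between mutant and control lines by 1.21 ± 0.80 (SE; adjusted p = 0.932, limma).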

How the data were processed

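Total RNA of 13 lines and V5 ChIP of 5 lines were measured by sequencing, with 1 library per line and assay. RNA reads were aligned by the authors with STAR (Ensembl annotation of GRCh38) and counted per gene. Mitochondrial RNA was then left out, and what the authors deposited is log2(TPM+1). The strand setting of the counts is not given in the sources used here. The authors described a high share of duplicate reads, which were marked without being removed, and used counts free of them only as a reference against overestimated levels. ChIP reads were mapped with Bowtie2 2.1.0, SAMtools 1.7 removed unmapped and secondary alignments, and MACS2 2.1.2.20181017 called peaks in each line with its input as background. Each deposited peak has a fold enrichment, which is a ratio to input, −log10 values of p and q, and a score. HOMER 4.9.1 was the authors' tool for annotation and was not used here.

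Members were matched by symbol, and the members and gene lists were chosen with earlier results of these data known. A gene was tested when it reached 1 in 3 or more lines, which kept 14884 genes. limma 3.58.1 in R 4.3.3 (lmFit, eBayes, two-sided, Benjamini-Hochberg over all genes tested) compared 10 mutant with 3 control lines and 4 contact with 6 structural mutants. No count model was used, since TPM are not counts. A fold on the log2(TPM+1) scale understates the change of low genes. Nothing states that lines were replicated as separate cultures, so p-values measure the spread between lines. The fit was tested on simulated data of 14884 genes, 200 of them shifted in 1 class. A shift of 2 (log2) was recovered in 19% of these genes for mutants against controls. For contact against structural mutants it was recovered in 0%. A shift of 4 was recovered in 85% and 83%. Differences of the size seen in most members could thus seldom pass. Single line differences of at least 1 were counted without a test. Exons, GC content and start sites came from the GENCODE v44 annotation of GRCh38, in which 57717 genes of the table (98.9%) and all 37 members were found by identifier. Sequences came from GRCh38 and from RefSeq promoters. Python 3.11.15 with numpy 2.4.6, pandas 2.3.3 and scipy 1.17.1 was used for descriptions and matplotlib 3.10.9 for figures.

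Named in full were the core subunits, the 5 members of lowest p in each comparison, the 4 of largest and of smallest SD, the 3 highest and lowest means, members with a promoter peak, and of the other lists the 2 genes of lowest p. Some items that these rules name are not reported here. The markers are 12 basal epithelial, 8 fibroblast, 6 endothelial and 6 blood cell genes. Alternatives were other pseudocounts, filters and scalings, a variance trend, detected genes as a covariate, leaving out lines, other peak thresholds and windows and, added after seeing the data, an adjustment for GC content in 20 bins.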

Additional observations from a re-analysis of the deposited data

Results flagged for a closer look

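In each class of mutants the highest and lowest line of every member was compared with its nearest neighbour, and a value was marked when this gap took a larger part of the class's whole range than Dixon's 95% critical value allows. Of 74 groups of 4 or 6 lines, 5 were marked, and chance marks about 1 in 20 groups. Only members were examined, so the share marked over all genes is not known. Of all genes tested, 45% in Y234C and 37.6% in R273H were lower than the mean of the other 9 mutants by at least 1. In Y234C, NDUFS3 (5.17, the next structural line at 6.87), NDUFA1 (6.89, next 8.83), NDUFB1 (3.17, next 5.26) and NDUFA2 (6.08, next 7.08) lay far below the other structural mutants. In R273H, NDUFA10 (3.90, next 5.01) lay far below the other contact mutants. Y234C and R273H are also the libraries in which the 50 most abundant genes took 46.8% and 37.4% of TPM, and the part of this in the marked values was not tested.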

How the results depend on the processing

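In every setting tried, 0 members passed an adjusted p of 0.05 in either comparison, and the differences of the 5 members of lowest p in each comparison, the members recomputed one by one, kept their sign. The median member difference ran from -0.03 to 0.18 over the settings for mutants against controls, on both sides of 0, and from -0.36 to -0.10 for contact against structural mutants. Members with an unadjusted p under 0.05 in limma numbered up to 2 of 37 for mutants against controls, without R273H and Y234C. In that setting 1085 of 14884 genes had such a p. For contact against structural mutants they numbered up to 6 of 37, without Y234C, where 1073 of 14884 genes had such a p. Centring each library on the median of the genes tested moved the median difference of all genes between mutants and controls from -0.08 to 0.09, and its share of genes above 0 from 45% to 55.9%. The number of all genes called in mutants against controls, 3, became 6 at a pseudocount of 0.1, 1 at 5, 5 without the filter, 0 with centring, 5 without the MTRNR2L genes and MT2A in the total, 5 with the number of detected genes as covariate, 8 without R273H and Y234C, 0 with the GC adjustment and 0 to 11 when 1 line was left out. For contact against structural mutants, 0 became 5 at a pseudocount of 0.1, 1 without the filter, 1 without R273H and Y234C and 0 to 1 when 1 line was left out. Single line differences numbered 189 at a difference of 0.58 (51.1% of member and line pairs, 57.2% over all genes) and 83 with centring (22.4% and 29.9%). Members with a promoter peak in the list labelled WTOE fell from 3 to 1 at a -log10 q of at least 2. They fell to 2 when the summit had to lie inside the window. The causes of these changes were not tested. Leaving out the library labelled WTOE gave a median member difference of 0.02 between mutants and controls. No paired analysis was possible because the labels give the lines no replicate numbers and each line has 1 library. RNA depth is unknown, so low values have no counting interval.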
